A study of Homo sapiens with 6 samples.

Results

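The genes described here are those of the CD nomenclature whose symbol is itself a CD number, from CD1A to CD320. They were taken by symbol from the array's annotation, as every gene named CD with a number and optional letters. CD2, CD3D, CD3E, CD3G, CD6, CD28, CD83, CD247, CD2AP and CD2BP2 were left out. The array carried 54 such genes on 186 probes. Of these, 53 had values on at least 2 of the 3 arrays of each siRNA and were kept, among 8797 tested features (4393 named genes and 4404 spots without a gene symbol). The gene that was not kept, CD209, had a value on 1 array only.

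The cells were Jurkat, a human T-cell leukaemia line grown in culture, transfected with siRNA against p65 (product of RELA and a subunit of NF-kB), with siRNA against RPS3 (a ribosomal protein), or with a nonspecific control siRNA. All cells, the controls included, were then stimulated through the T-cell receptor by anti-CD3/CD28 (1 ug) for 1, 3 or 6 h. Each of 6 spotted arrays compared Cy5-labelled RNA of siRNA-treated cells with Cy3-labelled RNA of control cells at the same time, so that each siRNA had 3 arrays, 1 per time. The series asked how RPS3 takes part in p65 binding complexes, and the comparison of the siRNAs over CD genes addresses which surface molecules differed with siRNA against either.

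Values below are log2 ratios of siRNA over control, so that 0 is no difference and 1 a doubling. They hold no expression level, and whether a gene was expressed in these cells at all could not be read from them. The direction was taken from the dyes and is likely rather than settled, and the log base is not given in the sources used here. In a bulk ratio, fewer cells of a type and less RNA per cell cannot be told apart. The sources do not say that the 3 arrays of a siRNA came from separate cultures, nor whether both siRNA arrays of a time shared their control RNA, so p-values measure the spread between these arrays over the times. Up to 15.1% of the probes of an array were blank. RPS3 itself read -2.50, -2.53 and -1.44 with its own siRNA at 1, 3 and 6 h, and 0.11, 0.01 and 1.11 with p65 siRNA. RELA lay at -0.41, -0.46 and -0.59 with p65 siRNA, and at -0.39, -0.69 and -0.54 with RPS3 siRNA. On the RELA probes the arrays of the 2 siRNAs overlapped.

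CD numbers are given to molecules recognised by sets of monoclonal antibodies, so the name stands for a way of finding a protein and not for a family. Most are proteins of the cell surface: receptors and their ligands, adhesion molecules, tetraspanins that organise membrane patches, and GPI-anchored proteins that shield a cell from complement. Some are found mainly elsewhere, such as CD68 and CD63 in lysosomes and CD5L as a secreted protein. In T cells, engagement of the receptor induces several of them within hours, CD69 being the usual early marker, and NF-kB is among the transcription factors that act on such genes.

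None of the 53 genes passed an adjusted p of 0.05 (limma, Benjamini-Hochberg over all 8797 features) in any of 4 comparisons, namely p65 siRNA against control, RPS3 siRNA against control, RPS3 siRNA against p65 siRNA, and the slope per hour. In each comparison 0% of all features passed. The lowest adjusted p of a CD gene was 0.919 for p65 siRNA, 0.491 for RPS3 siRNA, 1.00 for the difference and 0.189 for the slope. At an unadjusted p under 0.05, 3 CD genes were higher and 0 lower with p65 siRNA, where 2.65% and 2.41% of all features were (5.06% in all). With RPS3 siRNA 3 were higher and 2 lower, against 3.73% and 3.98% of all features (7.71% in all). The difference gave 1 higher and 2 lower in RPS3 siRNA cells, against 1.1% and 1.25% (2.35% in all). With the time point as a block, which pairs the arrays of one time, 6 CD genes had such a p in the difference, and 483 features did. The slope gave 6 upward and 1 downward, against 12.1% and 7% (19.1% in all). Apart from the blocked fit, these counts were few and close to the background. The blocked count stands beside a count of features and not a share, and 0 CD genes passed there after adjustment. None of the counts is a result about the CD genes, which are therefore described by their values.

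The direction of the means leaned upward with both siRNAs. With p65 siRNA 37 of 53 CD genes had a mean above 0 (69.8%, beside 55.8% of all features), and with RPS3 siRNA 36 did (67.9%, beside 54.1%). The medians were 0.09 and 0.07. Without the p65 siRNA array at 3 h the p65 siRNA median was 0.01, and without the RPS3 siRNA array at 1 h the RPS3 siRNA median was 0.02. The latter was 0.03 with only probes measured on all arrays, so the lean is small and rests partly on these choices. With p65 siRNA 13 CD genes were above 0 on every array measured and 4 below (14.3% and 11.4% of all features). With RPS3 siRNA 14 were above and 10 below (18% and 16%). RPS3 siRNA exceeded p65 siRNA at every time measured for 7 CD genes and lay under it for 11 (15.1% and 17.4%).

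Single arrays differed in how far the CD genes spread. On the p65 siRNA array at 1 h, 0 CD genes were above 0.5 and 2 below -0.5 (1.17% and 4.21% of all features). At 3 h of p65 siRNA 9 were above and 4 below (11.8% and 7.43%), and at 6 h 7 and 2 (8.7% and 1.81%). With RPS3 siRNA, 7 were above and 0 below at 1 h (8.87% and 5.47%). At 3 h there were 0 and 0 (1.08% and 2.6%), and at 6 h 5 and 3 (12.7% and 6.42%). The arrays of p65 siRNA at 1 h and RPS3 siRNA at 3 h, which form the first of 2 consecutive series of array ID numbers, were the narrowest, with SDs of 0.17 and 0.16 over the CD genes against 0.31 to 0.55 on the others.

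**Figure D1:**
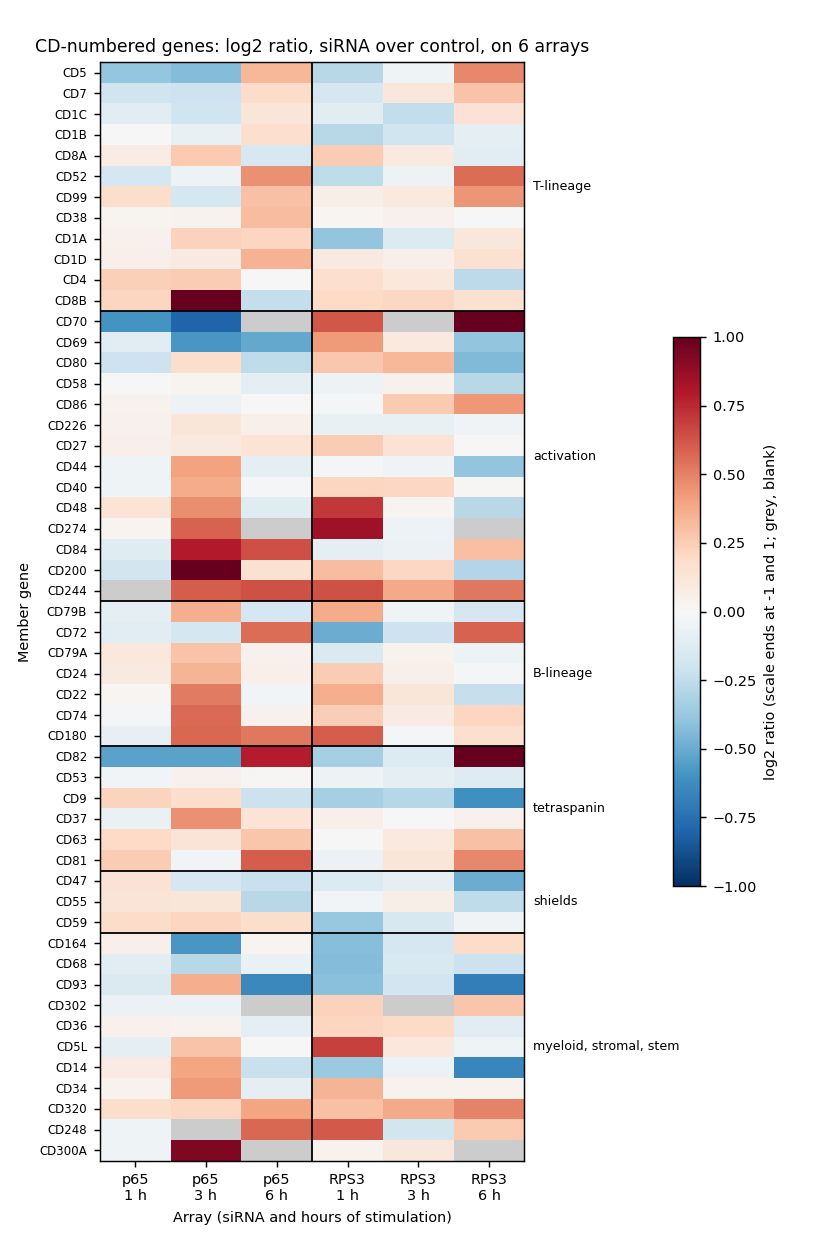
Log2 ratios of siRNA over control for the 53 CD-numbered genes (rows, in role groups) on the 6 arrays (columns, siRNA and hours of stimulation). Colour runs from blue at -1 to red at 1, larger values take the end colours, and grey marks a blank. The p65 siRNA array at 3 h has the red cells of CD8B and CD200, and CD82 turns from blue to red at 6 h with both siRNAs.

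The promoters were read for NF-kB sites because p65 is an NF-kB subunit. RefSeq's promoter table (GRCh38.p14) held 39 of the 53 genes. The 14 without a window, which were not searched, were CD1B, CD248, CD37, CD4, CD40, CD5, CD69, CD7, CD70, CD79B, CD81, CD84, CD8B and CD93. The most upstream start was taken where a gene had several, and the 250 bases before it were searched on both strands. The NF-kB consensus matched in 5 of the 39 windows (12.8%), beside 9.58% of all 27305 windows. The stretches below are shown because, of the 39 windows searched, these 5 alone held a match. They belong to CD24 and CD74 (B-lineage molecules), CD300A (an inhibitory receptor of myeloid cells), CD302 (a C-type lectin receptor) and CD8A (the coreceptor chain of cytotoxic T cells). Each has 30 bases, 5′ to 3′ on the gene's strand, with the match nearest the start in capitals, joined with any match that overlaps it (3 overlapping matches each for CD300A and CD74).
CD24, chr6:106975680-106975709, minus strand: gggccgcggaGGGGGTCCCCtcagggtggg
CD300A, chr17:74466232-74466261, plus strand: ctcaggaaaGGGGAGTTCCCCctggcagcc
CD302, chr2:159798314-159798343, minus strand: ttctcctggtGGGAGCCCCCagtgccgttc
CD74, chr5:150412911-150412940, minus strand: ctacctgcctGGGGAGCCCCCCcgccccac
CD8A, chr2:86808460-86808489, minus strand: ggcgagatagGGAGTGTCCCtgctgctagt

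With p65 siRNA the mean log2 ratios of these 5 genes were 0.16 ± 0.16 for CD24 (SD, n = 3), 0.45 ± 0.68 for CD300A (n = 2), -0.06 for CD302 (n = 2), 0.20 ± 0.32 for CD74 (n = 3) and 0.06 ± 0.21 for CD8A (n = 3). Only CD302 of the 5 had a mean below 0, and the spread of the others reached or nearly reached 0. The AP-1 motif TGANTCA was found in 6 of 39 windows (15.4%), beside 6.57% of all windows. It stood in CD14, CD180, CD226, CD244, CD27 and CD68, and none of these windows held the NF-kB consensus too.

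Among T-lineage and thymocyte molecules, the 12 measured genes had a median log2 ratio of 0.09 with p65 siRNA and of 0.07 with RPS3 siRNA, beside 0.02 over all features in both. None had an unadjusted p under 0.05 against control. CD4, the coreceptor of helper T cells, lay at 0.24, 0.25 and 0.00 with p65 siRNA at 1, 3 and 6 h and at 0.17, 0.11 and -0.26 with RPS3 siRNA, and no single CD4 probe had a value on every array. CD8A lay at 0.08, 0.26 and -0.16 with p65 siRNA and at 0.25, 0.09 and -0.11 with RPS3 siRNA. Both coreceptor genes were lower at 6 h than on the 4 earlier arrays. The other CD8 chain, CD8B, was at 1.11 on the p65 siRNA array at 3 h and between -0.24 and 0.22 on the other arrays, and its probes may also detect its near-identical copy CD8B2. CD99, a thymocyte adhesion molecule, was above 0 on all 3 RPS3 siRNA arrays (0.06, 0.10 and 0.44) and at 0.17, -0.17 and 0.29 with p65 siRNA.

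The CD1 genes encode relatives of MHC class I that present lipids, and CD1A to CD1C mark cortical thymocytes. CD1A lay at 0.04, 0.23 and 0.21 with p65 siRNA and at -0.39, -0.14 and 0.11 with RPS3 siRNA. At each time the RPS3 siRNA array was the lower one, with a mean difference of -0.30 ± 0.18 (SD over 3 times; limma unadjusted p = 0.135). CD1B lay at -0.01, -0.07 and 0.17 with p65 siRNA and at -0.28, -0.20 and -0.10 with RPS3 siRNA, without overlap. Its 1 probe with values on all arrays did overlap, at -0.22 at 3 h of p65 siRNA and -0.09 at 6 h of RPS3 siRNA. CD1C lay at -0.11, -0.20 and 0.12 with p65 siRNA and at -0.12, -0.25 and 0.14 with RPS3 siRNA, and the arrays of one time nearly coincided. CD1D, which presents to NKT cells, was above 0 on all 6 arrays, from 0.05 to 0.35. Of its 2 probes, 1 read below 0 at 1 and 3 h, at -0.10 and -0.09 with p65 siRNA and -0.24 and -0.01 with RPS3 siRNA. The other probe read -0.045 at 6 h of RPS3 siRNA, so neither was above 0 on every array. The CD1 genes are close relatives, and cross-hybridisation between their probes was not tested.

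**Figure D2:**
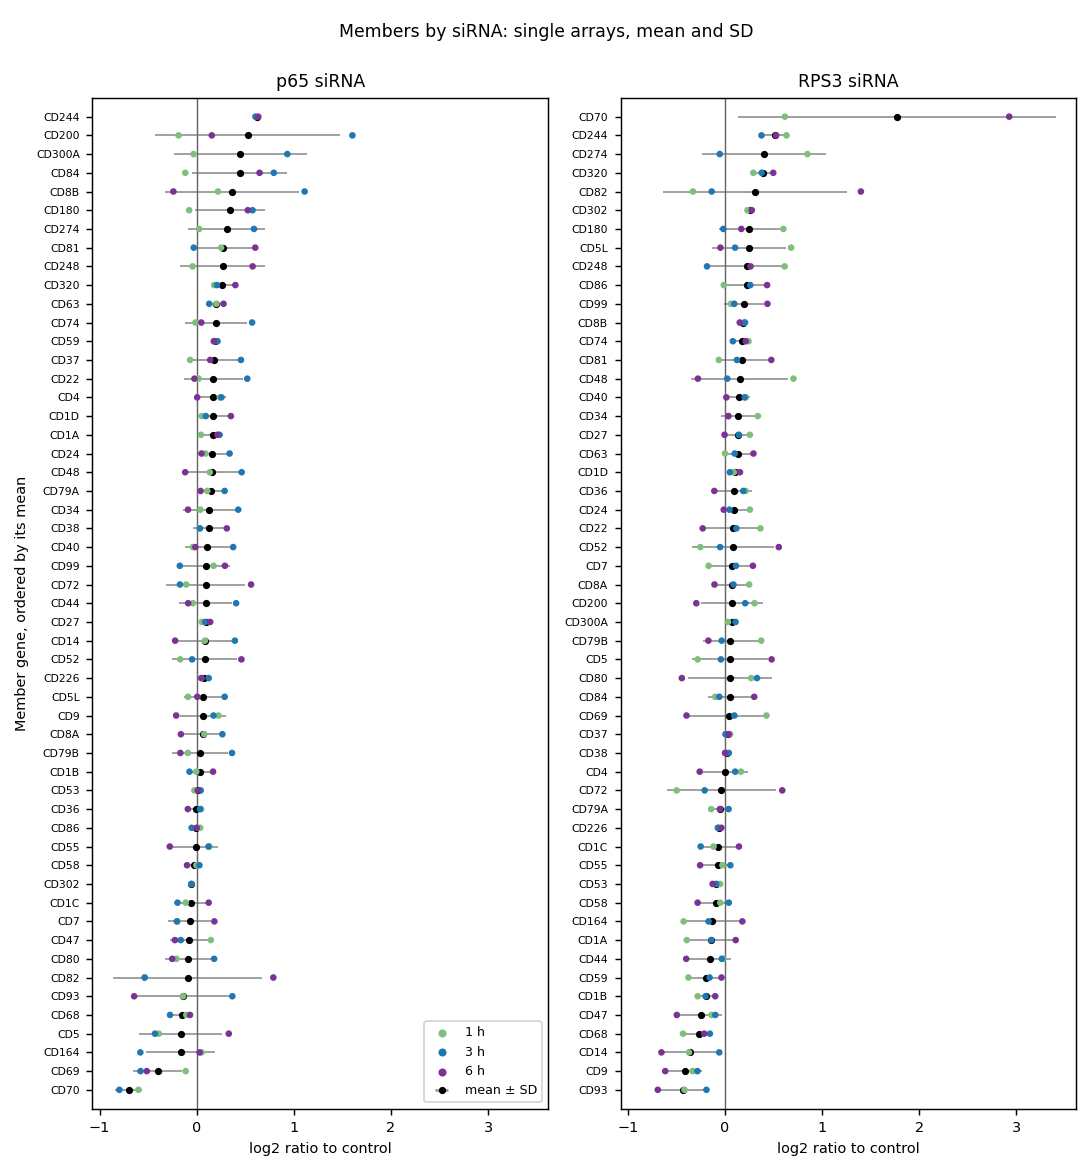
Log2 ratio to control of each of the 53 CD genes with p65 siRNA (left) and with RPS3 siRNA (right), ordered by mean. Coloured points are single arrays at 1, 3 and 6 h, black points the mean of 2 or 3 arrays and grey bars the SD. With p65 siRNA CD70 and CD69 have the lowest means (-0.70 and -0.40), and with RPS3 siRNA CD93 and CD9 do (-0.43 and -0.41).

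Of 14 activation and co-stimulatory molecules, 9 had a mean above 0 with p65 siRNA, with a median of 0.09 and a range from -0.70 to 0.62. With RPS3 siRNA 11 did, with a median of 0.10. CD70 and CD69, in this group, had the lowest means of all CD genes with p65 siRNA. CD69, the C-type lectin that keeps activated lymphocytes in tissue, lay at -0.11, -0.58 and -0.51 at 1, 3 and 6 h of p65 siRNA. With RPS3 siRNA it lay at 0.43, 0.10 and -0.39. The p65 siRNA arrays were thus all below 0, and the RPS3 siRNA arrays ran from above to below 0 and overlapped them. Its mean was 1.32-fold lower than control with p65 siRNA (-0.40 ± 0.25, SD, n = 3; limma unadjusted p = 0.0516, adjusted p = 0.919) and 0.04 ± 0.41 with RPS3 siRNA. All 4 CD69 probes were below 0 on each p65 siRNA array, with means from -0.53 to -0.27. The RPS3 siRNA array was the higher one at every time, by 0.45 ± 0.29 on average (unadjusted p = 0.11, limma). With the time point as a block the unadjusted p was 0.0175 for p65 siRNA and 0.0416 for the difference (limma), and neither passed after adjustment. CD69 also had the 1 downward slope with an unadjusted p under 0.05, -0.12 ± 0.04 per hour (SE; limma unadjusted p = 0.0253, adjusted p = 0.214). Within the 4 arrays of the second series of array ID numbers, the 6 h minus 1 h value of CD69 was -0.82 with RPS3 siRNA, and its 6 h minus 3 h value was 0.06 with p65 siRNA.

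CD70, the TNF-family ligand of CD27, was measured by 1 probe on 4 arrays. With p65 siRNA it lay at -0.60 at 1 h and -0.80 at 3 h, and with RPS3 siRNA at 0.62 at 1 h and 2.93 at 6 h. The siRNAs lay on opposite sides of 0, and only 1 h was measured with both. The fitted difference of 2.47 (unadjusted p = 0.0156, limma) therefore sets a mean of 1 h and 3 h against a mean of 1 h and 6 h, and with time as a block it was 1.22. The RPS3 siRNA mean of 1.77 ± 1.63 (SD, n = 2) rests largely on the 6 h array, on which 12.7% of all features lay above 0.5. CD27, its receptor, had means of 0.09 ± 0.04 with p65 siRNA and 0.13 ± 0.13 with RPS3 siRNA (SD, n = 3).

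The SLAM family gives T and NK cells pairs of receptor and ligand. CD244, the receptor for CD48, was blank on the p65 siRNA array at 1 h and lay at 0.60 and 0.63 at 3 and 6 h. With RPS3 siRNA it lay at 0.63, 0.38 and 0.53, so that all 5 values were above 0 and the siRNAs overlapped. It was 1.54-fold above control with p65 siRNA (unadjusted p = 0.0036, adjusted p = 0.919, limma) and 1.43-fold above with RPS3 siRNA (unadjusted p = 0.0033, adjusted p = 0.491, limma). The labels name no dye swap, so for this gene, read by 1 probe, an effect of the dyes and of the siRNA cannot be told apart. The 250 bases before the CD244 start, on chr1:160862888-160863137, minus strand (GRCh38.p14), are shown because this gene had the lowest unadjusted p against control, with its AP-1 match in capitals.
CD244: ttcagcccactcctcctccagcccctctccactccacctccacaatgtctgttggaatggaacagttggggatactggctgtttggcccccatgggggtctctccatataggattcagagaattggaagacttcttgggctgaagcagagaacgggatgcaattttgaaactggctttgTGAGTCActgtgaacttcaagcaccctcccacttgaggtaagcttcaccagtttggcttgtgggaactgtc

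CD48, its ligand, lay at 0.13, 0.46 and -0.12 with p65 siRNA and at 0.71, 0.02 and -0.28 with RPS3 siRNA. Both 6 h arrays were the lowest (slope -0.13 ± 0.05 per hour, SE, with a limma unadjusted p = 0.05). With only the probes measured on all arrays the slope was -0.08 (limma unadjusted p = 0.123). CD84, a SLAM receptor that binds itself, had a mean of 0.44 ± 0.49 with p65 siRNA (SD, n = 3; unadjusted p = 0.0485, limma) and of 0.05 ± 0.22 with RPS3 siRNA. Its 2 probes parted: one read 2.14 at 3 h of p65 siRNA and was blank at 6 h, and the other, with values on all arrays, read -0.40, -0.56 and 0.65. The mean of that complete probe alone was -0.10, and without the 3 h array the p65 siRNA mean of both was 0.26.

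Other members of this group had wide spreads over the times. CD274, the PD-1 ligand PD-L1, lay at 0.02 and 0.59 with p65 siRNA and at 0.85 and -0.05 with RPS3 siRNA at 1 and 3 h, and was blank at 6 h. CD200, a ligand that restrains myeloid cells, was at 1.60 on the p65 siRNA array at 3 h and between -0.29 and 0.31 elsewhere. CD44, the hyaluronan receptor, lay at -0.04, 0.40 and -0.09 with p65 siRNA and at -0.02, -0.03 and -0.40 with RPS3 siRNA. CD226, a receptor for nectin-family ligands, was slightly above 0 with p65 siRNA (0.05, 0.12 and 0.05) and slightly below with RPS3 siRNA (-0.07, -0.07 and -0.04), a difference of -0.13 (unadjusted p = 0.384, limma). These values are means of 2 probes. The 1 with values on all arrays read -0.08, 0.17 and -0.04 with p65 siRNA.

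Of 11 CD-numbered genes listed as NF-kB targets from general knowledge, 9 were tested. With p65 siRNA 6 of the 9 had a mean above 0, with a median of 0.11, and with RPS3 siRNA 8 of 9, with a median of 0.14. Over all features 55.8% and 54.1% had a mean above 0. CD69 was the lowest of the 9 with p65 siRNA, and CD274 at 0.31 ± 0.40 (SD, n = 2) the highest.

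**Figure D3:**
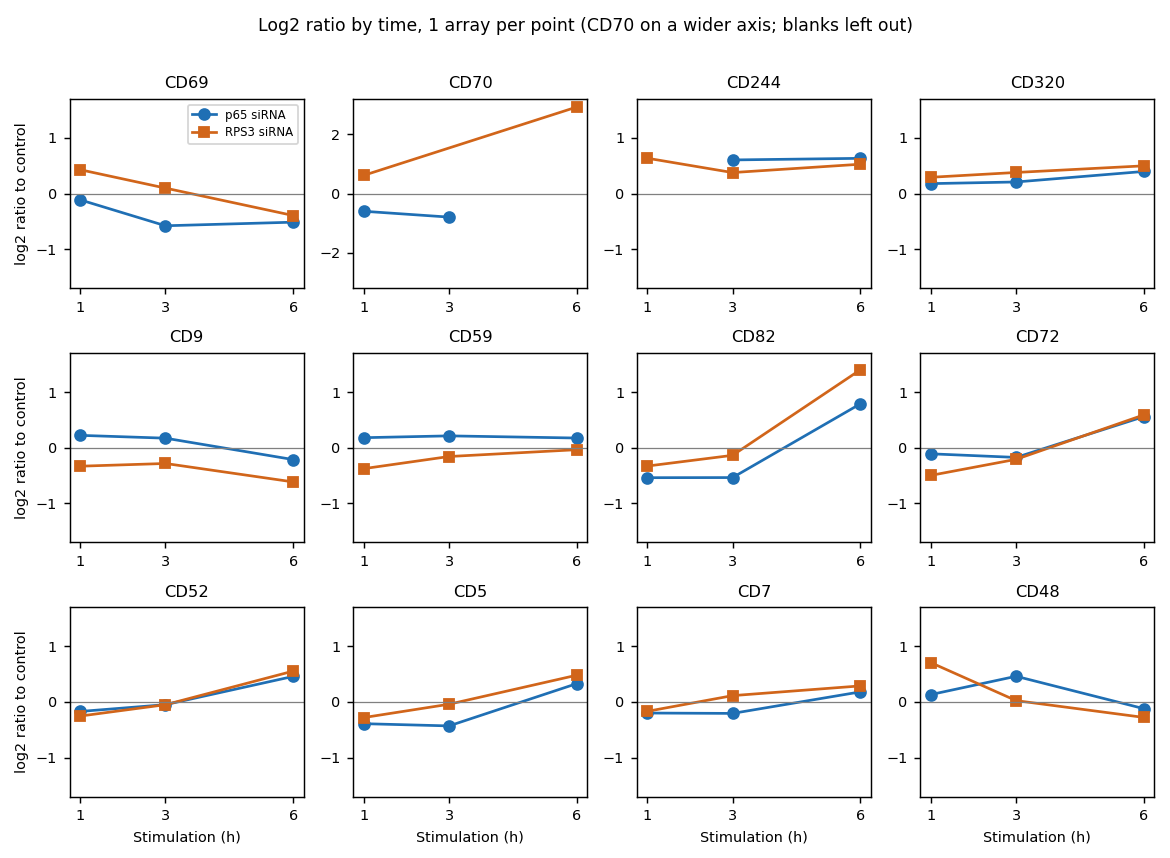
Log2 ratio to control (vertical axis; that of CD70 is wider) against hours of stimulation for 12 CD genes, 1 array per point, p65 siRNA in blue circles and RPS3 siRNA in orange squares, with blanks left out. CD69 is below 0 on all p65 siRNA arrays, CD9 and CD59 lie lower with RPS3 siRNA at every time, and CD82, CD72 and CD52 are highest at 6 h with both siRNAs.

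B-lineage molecules were measured for 7 genes. All 7 had a mean above 0 with p65 siRNA, with a median of 0.16, and 5 of 7 with RPS3 siRNA, with a median of 0.09, and none had an unadjusted p under 0.05 against control. The p65 siRNA values came mainly from the 3 h array, where 6 of 7 were above 0 with a median of 0.36, while the medians were -0.01 at 1 h and 0.05 at 6 h. CD74, the invariant chain of MHC class II, lay at -0.01, 0.57 and 0.05 over these times. On the same 3 h array 14 of 18 markers of other lineages (B, myeloid, NK, erythroid, endothelial, stromal and epithelial cells) were above 0, from -0.49 to 1.27 with a median of 0.31. Those markers had medians between -0.08 and 0.15 on the other 5 arrays, and their part in the B-lineage values was not tested. On that array 36 of 52 measured CD genes were above 0 and 9 exceeded 0.5, where 11.8% of all features did. CD72, an inhibitory coreceptor of B cells, differed from this pattern and is described with the time course.

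A tetraspanin, CD9, and a shield molecule, CD59, had the lowest unadjusted p among CD genes lower with RPS3 than with p65 siRNA. CD9, a tetraspanin that associates with integrins, lay at 0.22, 0.17 and -0.21 with p65 siRNA and at -0.33, -0.28 and -0.61 with RPS3 siRNA. Every RPS3 siRNA array lay below every p65 siRNA array. At matched times the difference was -0.55, -0.46 and -0.40, with a mean of -0.47 ± 0.08 (SD, n = 3; unadjusted p = 0.0384, adjusted p = 1.00, limma). Against control CD9 was 1.33-fold lower with RPS3 siRNA (-0.41 ± 0.18; unadjusted p = 0.0161, adjusted p = 0.575, limma) and at 0.06 ± 0.24 with p65 siRNA. All 3 CD9 probes were below 0 on each RPS3 siRNA array. Between arrays of one ID series, the difference was -0.51 in the first and -0.45 in the second. The first sets RPS3 siRNA at 3 h against p65 siRNA at 1 h, and the second 1 and 6 h against 3 and 6 h. Within a series the siRNA is therefore mixed with time.

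CD59, the GPI-anchored inhibitor of the complement membrane attack complex, lay at 0.18, 0.21 and 0.17 with p65 siRNA and at -0.38, -0.16 and -0.04 with RPS3 siRNA. The siRNAs lay on opposite sides of 0 at every time, which 4 CD genes and 2.07% of all features did on every array measured. The difference was -0.38 ± 0.17 (SD, n = 3; unadjusted p = 0.0453, adjusted p = 1.00, limma), and -0.34 and -0.40 within the first and second ID series. As for CD9, the values within a series set unlike times against each other. Of 5 CD59 probes, 4 had values on all arrays, with means of 0.08 to 0.31 with p65 siRNA and of -0.35 to -0.11 with RPS3 siRNA. At 6 h of RPS3 siRNA single probes read 0.24, 0.23, 0.01, -0.03 and -0.63. The sign of the gene's mean there was thus not shared by all probes. Of the other shields, CD55, which speeds the decay of complement convertases, had means of -0.01 ± 0.23 and -0.07 ± 0.16, and CD47, which signals to phagocytes through SIRPA, had means of -0.08 ± 0.20 and -0.24 ± 0.22 with p65 and RPS3 siRNA. Their differences between the siRNAs were -0.07 ± 0.09 and -0.16 ± 0.20 (SD over 3 times; limma unadjusted p = 0.734 and 0.414). Arrays of the 2 siRNAs did not overlap for 8 CD genes, 2 with RPS3 siRNA higher (4.56% of all features) and 6 with it lower (5.25%). The 2 were CD70 and CD302, and the 6 were CD9, CD59, CD1B, CD53, CD79A and CD226. These calls use the mean over a gene's probes, and single probes did not all share them. For CD1B, CD226 and CD79A every probe with values on all arrays overlapped. Some such probes of CD53, CD59 and CD9 overlapped too. The CD9 probe that did read -0.34 at 6 h of p65 siRNA and -0.20 at 3 h of RPS3 siRNA.

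The 250 bases before the CD9 and CD59 starts are shown because these genes had the lowest unadjusted p for RPS3 siRNA below p65 siRNA. They lie on chr12:6199696-6199945, plus strand, and on chr11:33736480-33736729, minus strand (GRCh38.p14). Neither window held an NF-kB or AP-1 match in these letters, so no base is in capitals.
CD9: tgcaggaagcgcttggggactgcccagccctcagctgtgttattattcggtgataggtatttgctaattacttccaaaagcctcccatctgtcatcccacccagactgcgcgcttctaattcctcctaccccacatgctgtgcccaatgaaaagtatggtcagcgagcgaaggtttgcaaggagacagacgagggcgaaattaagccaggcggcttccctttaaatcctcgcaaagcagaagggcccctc
CD59: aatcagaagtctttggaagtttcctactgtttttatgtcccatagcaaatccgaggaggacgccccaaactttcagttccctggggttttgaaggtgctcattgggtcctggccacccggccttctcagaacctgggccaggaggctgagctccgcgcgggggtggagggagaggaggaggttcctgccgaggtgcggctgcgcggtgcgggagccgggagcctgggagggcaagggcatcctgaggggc

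**Figure D4:**
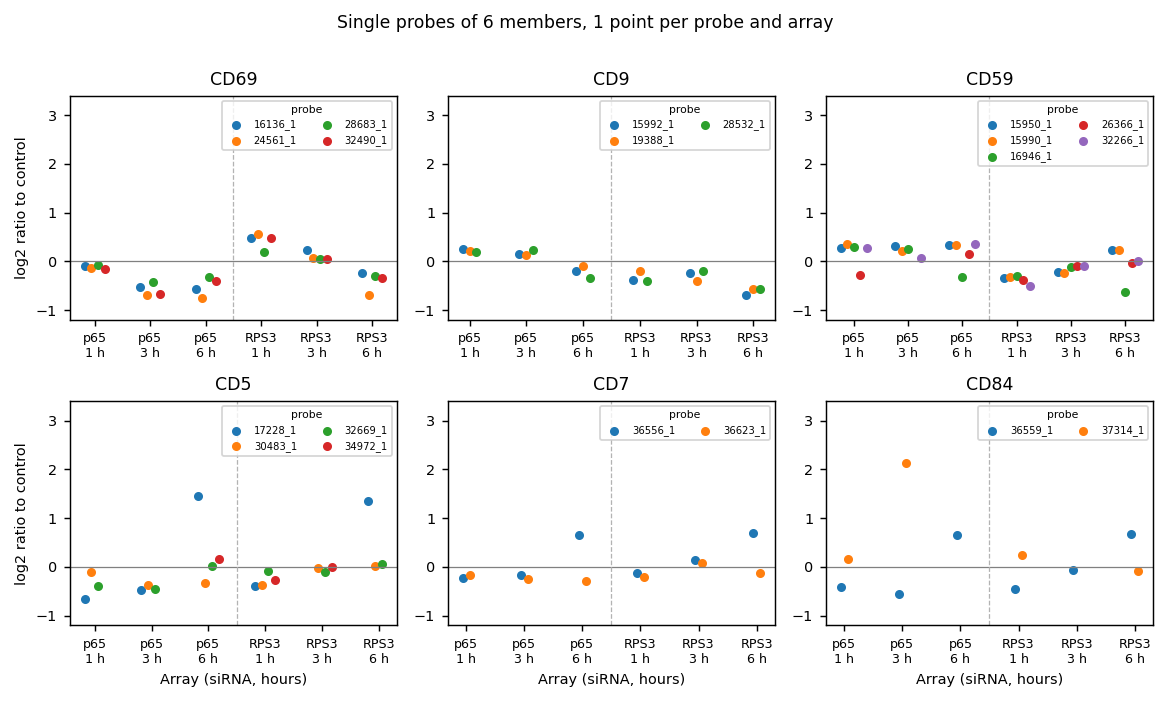
Log2 ratio to control of single probes of CD69, CD9, CD59, CD5, CD7 and CD84, 1 point per probe and array (siRNA and hours). The 4 CD69 probes and the 3 CD9 probes move together, while 1 CD5 probe reads 1.46 and 1.36 at 6 h and 1 CD84 probe 2.14 at 3 h, apart from the others.

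Among myeloid, stromal and stem-cell molecules, CD320, the receptor that takes up transcobalamin-bound vitamin B12, was above 0 on every array. It lay at 0.18, 0.21 and 0.40 with p65 siRNA and at 0.29, 0.38 and 0.50 with RPS3 siRNA, and both of its probes were above 0 on all 6 arrays. It was 1.20-fold above control with p65 siRNA (unadjusted p = 0.0464, adjusted p = 0.919, limma) and 1.31-fold with RPS3 siRNA (unadjusted p = 0.0082, adjusted p = 0.50, limma). CD244 and CD320 were 2 of 5 CD genes above 0 on every array of both siRNAs (5.13% of all features), with CD1D, CD38 and CD63. CD38 was as low as 0.0017 at 6 h of RPS3 siRNA, and single probes of CD1D, CD38 and CD63 lay below 0 on some arrays. CD63, a lysosomal tetraspanin, had means of 0.20 ± 0.07 with p65 siRNA and 0.13 ± 0.15 with RPS3 siRNA. CD68, a lysosomal glycoprotein of macrophages, was the 1 CD gene below 0 on every array of both siRNAs (3.43% of all features). It lay at -0.11, -0.28 and -0.07 with p65 siRNA and at -0.43, -0.15 and -0.21 with RPS3 siRNA (unadjusted p = 0.0484 for RPS3 siRNA, limma). All 4 CD68 probes were below 0 on each RPS3 siRNA array, but only 1 was below 0 on each p65 siRNA array.

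CD14, the coreceptor for lipopolysaccharide, lay at 0.08, 0.39 and -0.22 with p65 siRNA and at -0.37, -0.06 and -0.65 with RPS3 siRNA, with a difference of -0.44 ± 0.01 at matched times (SD over 3 times; limma unadjusted p = 0.0892, and 0.0172 when blocked by time). That small SD is over matched times, and the arrays of the 2 siRNAs overlapped. Within the ID series the difference was -0.14 and -0.60, again between unlike times, and CD14 was read by 1 probe. CD93, a C-type lectin-like receptor of endothelial and myeloid cells, lay at -0.14, 0.37 and -0.65 with p65 siRNA and at -0.42, -0.19 and -0.69 with RPS3 siRNA. Its RPS3 siRNA mean of -0.43 ± 0.25 had an unadjusted p of 0.0587, and that of CD14, -0.36 ± 0.30, one of 0.0577 (limma); with the time point as a block these were 0.011 and 0.01. The order of CD93 over time was alike with both siRNAs, lowest at 6 h and highest at 3 h. CD302 was measured on 4 arrays, at -0.06 and -0.06 at 1 and 3 h with p65 siRNA and at 0.23 and 0.28 at 1 and 6 h with RPS3 siRNA. CD300A was blank at 6 h, at -0.03 and 0.93 at 1 and 3 h with p65 siRNA and at 0.03 and 0.11 with RPS3 siRNA, so its slope of 0.26 per hour (limma unadjusted p = 0.137) rests on 1 array.

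Over time, the ratio to control of 6 CD genes had an upward slope with an unadjusted p under 0.05: CD82, CD52, CD72, CD5, CD7 and CD70. CD82, a tetraspanin that can restrain cell migration, was read by 1 probe. It lay at -0.54, -0.54 and 0.79 with p65 siRNA and at -0.33, -0.14 and 1.40 with RPS3 siRNA. Both 6 h arrays stood above 0 and the 4 earlier arrays below. RPS3 siRNA exceeded p65 siRNA at each time, by 0.41 on average (limma unadjusted p = 0.465, and 0.0383 when blocked by time). Its slope was 0.32 ± 0.06 per hour (SE; unadjusted p = 0.0014, adjusted p = 0.189, limma). CD72 lay at -0.11, -0.17 and 0.56 and at -0.50, -0.21 and 0.59, and both of its probes gave this order, with a slope of 0.18 ± 0.04. CD52, a short GPI-anchored glycopeptide of lymphocytes, lay at -0.17, -0.05 and 0.46 and at -0.25, -0.05 and 0.55, with a slope of 0.15 ± 0.03. Its 3 probes differed in size at 6 h. The highest read 0.72 and 1.145 with p65 and RPS3 siRNA, and the others between 0.16 and 0.41. Only the highest had an unadjusted p under 0.05 for its own slope (limma). For these genes the slope is the 6 h arrays against the rest: without both 6 h arrays it was 0.05 for CD82, 0.06 for CD72 and 0.08 for CD52.

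CD70, measured on 4 arrays, had a slope of 0.38 ± 0.11 per hour, which rests on its 1 value at 6 h. CD5, an inhibitor of T-cell receptor signalling, had a slope of 0.15 ± 0.04 per hour that came from 1 of 4 probes. That probe read 1.46 and 1.36 at 6 h, and with only the probes measured on all arrays the slope was 0.04. The 2 probes of CD7, an early T-lineage marker, parted in the same way, at 0.65 and 0.70 against -0.28 and -0.12 at 6 h with p65 and RPS3 siRNA. Without the p65 siRNA array at 1 h, CD82 and CD72 passed the adjusted threshold of the slope (slopes 0.38 and 0.23 per hour; adjusted p = 0.0296 and 0.033, limma), where 488 features did.

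Slopes of this size were common over the whole array. Among features measured on all arrays, both 6 h values exceeded the 4 earlier ones for 22.4% and lay below them for 19.1%, and for the 47 such CD genes the counts were 11 and 13. Of 12 T-cell identity genes outside the set, 7 had an upward slope at an unadjusted p under 0.05, among them CD3E, CD28, LCK and ZAP70, beside 12.1% of all features. CD3D and CD2 had slopes below 0 (-0.04 and -0.01 per hour), and GATA3 was at -0.45 and -0.23 at 6 h. Their medians were 0.26 and 0.58 at 6 h with p65 and RPS3 siRNA, with a range from -0.45 to 0.93 there, and between -0.17 and 0.00 on the earlier arrays. Their part in the slopes of CD5, CD7 and CD52 was not tested. Each time had 1 array per siRNA, and the first of the 2 ID series held no 6 h array. Within the second series CD82 at 6 h exceeded its earlier array by 1.32 with p65 siRNA and by 1.73 with RPS3 siRNA, and CD72 by 0.73 and 1.09.

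CD-designated molecules known by other symbols were set beside these genes. Of 102 listed, 78 were tested, and none passed the adjusted threshold. PTPRC is also among the T-cell identity genes and CSF1R among the markers of other lineages. With RPS3 siRNA 8 of 78 were lower and 1 higher at an unadjusted p under 0.05, where 3.98% and 3.73% of all features were. Among the lower ones were BSG (CD147, -0.55 ± 0.32), TNFRSF9 (the co-stimulatory receptor 4-1BB, -0.43 ± 0.22), FAS (the death receptor, -0.50 ± 0.24) and NT5E (the ectonucleotidase that makes adenosine, -0.36 ± 0.16; SD, n = 3 each), and CSF1R, the receptor of macrophage colony-stimulating factor, was the higher one (0.98 ± 0.07, n = 2). With p65 siRNA, 1 was higher, TNFRSF1A (a TNF receptor, 0.27 ± 0.13), and 1 lower, PTPRC (the phosphatase CD45, -0.36 ± 0.26), beside 2.65% and 2.41% of all features. The slope was upward for 8 and downward for 1 (12.1% and 7% of all features), which is no more than the background. The 4 upward genes of lowest p were IL2RG, ITGA5, TNFRSF8 and ITGA4 (0.18, 0.14, 0.14 and 0.19 per hour), and the downward one was ITGB3 (-0.10 per hour).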

How the data were processed

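Total RNA of 6 pairs of Jurkat samples was hybridised to 2-colour spotted arrays. The authors deposited 1 log ratio per probe, read here as log2; neither the base nor the direction is stated. Deposited values ran from -7.61 to 9.52, a range that as log10 would be ratios beyond what a scanner records, and a natural log was not tested. Image analysis, background correction, the rule for blanks and normalization are not given in the sources used here. Array medians lay between -0.0185 and 0.007 as deposited. Here each array was median-centred, probes of a symbol (platform annotation) were averaged, and features with values on at least 2 of 3 arrays of each siRNA were fitted with limma 3.58.1 (R 4.3.3; lmFit, eBayes) over all 6 arrays, the times standing as replicates; a blank array is dropped from that gene's fit. A ratio against 0 leaves out the spread of the control itself, and a dye effect cancels only in the difference between siRNAs. P-values were adjusted by Benjamini-Hochberg over 8797 features, and the code was tested on simulated data.

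Members and gene lists were chosen with earlier results of these data known. Genes were named if the unadjusted p was under 0.05 in any comparison, if they had the 5 highest or lowest means of 1 sign on every array (3 for slopes), or as T-cell molecules; CD24, CD27, CD38, CD53, CD55, CD74, CD79A, CD8B and CD200 were added after their values were seen. Alternatives covered centring, scaling, probe averaging, blanks, time and ID series, robust moderation and leaving out arrays.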

Additional observations from a re-analysis of the deposited data

Results flagged for a closer look

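For 4 CD genes every array of one siRNA lay above 0 and every array of the other below, which 2.07% of all features did. The difference of RPS3 siRNA minus p65 siRNA was -0.38 for CD59, 2.47 for CD70, 0.31 for CD302 and -0.13 for CD226. The limma test of the difference itself gave unadjusted p-values of 0.0453, 0.0156, 0.178 and 0.384 in that order, and adjusted p-values of 1.00 for each. CD59 and CD226 were measured on all 6 arrays, and CD70 and CD302 on 4. Single CD59 probes lay on both sides of 0 at 6 h of RPS3 siRNA. Only 1 of 2 CD226 probes had values on all arrays. That probe alone did not have opposite signs, with -0.08, 0.17 and -0.04 with p65 siRNA and -0.11, -0.035 and -0.036 with RPS3 siRNA.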

How the results depend on the processing

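No CD gene passed the adjusted threshold under any alternative except CD72 and CD82 in the slope without the p65 siRNA array at 1 h. Leaving out each array in turn gave 0 to 488 features passing for the slope. For RPS3 siRNA against control, 1 feature passed with quantile normalization, 1 with the time point as a block and 2 without both 6 h arrays, all lower. For the difference, 1 passed with the time point as a block, and it was lower. The sign turned for CD84 with p65 siRNA (-0.10 with only probes measured on all arrays), CD70 with p65 siRNA (0.10 with time as a block), CD82 in the difference (-0.14 without the RPS3 siRNA array at 6 h, and up to 0.85 without the p65 siRNA array at 6 h) and the slope of CD93 (0.18 without both 6 h arrays). For CD84 the turn follows from the probe dropped; for the others the cause was not tested. A paired analysis by replicate number was not made, since the numbers stand for different times; arrays pair by time, and that fit is the time block, which cannot be fitted for the slope. With it, unadjusted p-values under 0.05 went from 3 to 5 CD genes for p65 siRNA, from 5 to 7 for RPS3 siRNA and from 3 to 6 for the difference, with 0 passing after adjustment. The number for the slope went from 7 to 15 without the p65 siRNA array at 1 h, 2 without the RPS3 siRNA array at 6 h and 0 without both 6 h arrays. For the difference the count over all features rose with the block too, as given above. The other counts stand here without the share of all features, so none is a result about the CD genes. Blanks and 1 array per siRNA and time limit all values.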
